A study of Rattus norvegicus with 18 samples.

Results

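The comparison set livers of rats kept on fish oil against livers of rats kept on virgin olive oil at 6 months of age. Members were all arrays titled as young fish oil or young virgin olive oil livers, 3 of each, so 6 of the 18 arrays of the series. They were paired by the sample number (1, 2 or 3) in the title. All animals were male Wistar rats on a semi-synthetic AIN93-type diet from weaning, with 4% fat by weight, and the groups differed in the oil that supplied the fat. Food was given freely up to 2 months of age and as a fixed daily ration afterwards. The remaining 12 arrays were 3 sunflower oil livers of 6 months and 3 livers of each oil at 24 months. Each array was 1 animal, and the RNA came from a piece of whole liver. Rats lived 3 to a cage, and the labels do not say who shared one, so p-values measure only the spread of these animals as housed. In the main model that is the spread left once the sample number is taken out, not the full spread between animals.

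Liver handles dietary fatty acids along opposed routes. Acetyl-CoA is built into new fatty acids by enzymes under the transcription factor SREBP-1c, and desaturases and elongases then reshape fatty acids into polyunsaturated forms. Fatty acids are broken down in mitochondria and peroxisomes by enzymes under PPAR-alpha, a nuclear receptor that binds fatty acids. The long-chain n-3 acids that abound in fish oil are known, as background, to activate PPAR-alpha and to hold back SREBP-1c in rodent liver. Oleic acid is the main acid of olive oil. The comparison asks, as the design text states for the series, how the type of fat changes liver transcripts, here in young adult animals.

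Signals are the authors' deposited intensities from Affymetrix Rat Genome 230 2.0 arrays, on which short probes are grouped into probe sets. A difference is fish minus olive oil on the log2(signal + 16) scale, which understates changes of dim genes, and is given ± its standard error in limma. The model held the 9 livers of 6 months, with oil and sample number as terms, and adjusted p-values are Benjamini-Hochberg values over all 14217 genes. Array medians ran from 15.5 to 18.4 at 6 months. Hepatocyte markers were the brightest marker list, at a summed signal of 80440 to 98477 for 11 genes on the 6 arrays. Of the marker lists for other cells, 5 of 14 T and NK cell genes (Cd3d, Cd8a, Cd8b, Klrd1 and Gzmb), 4 of 10 monocyte and granulocyte genes, 5 of 9 cholangiocyte genes, 2 of 9 adipocyte genes (Adipoq and Lep) and 7 of 12 exocrine pancreas genes were under a signal of 16 on all 6 arrays. Summed signals were 225 to 256 with olive oil and 174.5 to 267 with fish oil for T and NK cells, and 2448 to 2667 and 1748 to 3017 for macrophages. They were 2563 to 3656 and 2471 to 3378 for the cholangiocyte list and 7518 to 8037 and 7230 to 7938 for the adipocyte list. The cholangiocyte list includes Krt8 and Krt18 and the adipocyte list Pck1, genes that hepatocytes also express. These sums are therefore not levels of those cells alone. The pancreas list summed to 949.5 to 978 with olive oil and 1111 to 1526 with fish oil, which did not overlap. Its mean log2 levels did overlap, at 4.877 to 4.95 with olive oil and 4.814 to 5.045 with fish oil. Of its 12 genes, 7 were lower and 5 higher with fish oil, with a median difference of -0.05. The part of this list in the results was not tested.

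The 3 livers numbered 2 stood apart from the other young livers, whatever the oil. Fasn, the fatty acid synthase, had signals of 2535 with olive oil, 1456 with sunflower oil and 1161 with fish oil in the livers numbered 2, against 33.1 to 95.3 in the other 6. Acot1, an acyl-CoA thioesterase, went the other way, at 4.8, 0.5 and 53.5 in the livers numbered 2 against 283 to 2728 in the rest. Over the 6 fish and olive oil livers, the median share of the sum of squares was 45.4% for the sample number and 11.3% for the oil. With 3 numbers and 2 oils, the number takes the larger share on average even in random values. The 2 shares over all genes are therefore not a measure of which mattered more. For the 27 lipogenic genes described later these shares were 82.4% and 9.7%. Deviations from the group means correlated between fish and olive oil livers of one number, at 0.24, 0.40 and 0.25 over all genes. Differences were therefore taken within numbers, and the results are also given without the number as a term and without the livers numbered 2. The labels do not say what the number stands for.

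One gene of 14217 passed the threshold (adjusted p under 0.05), which is 0.00703% of those tested. At an unadjusted p under 0.05 there were 1003 genes (7.05%), 517 lower with fish oil (3.64%) and 486 higher (3.42%). Without the number as a term 0 genes passed, and 603 had an unadjusted p under 0.05. Without the livers numbered 2, 0 genes passed and 796 had an unadjusted p under 0.05. All other genes named here are therefore given with values and not as called changes.

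**Figure D1:**
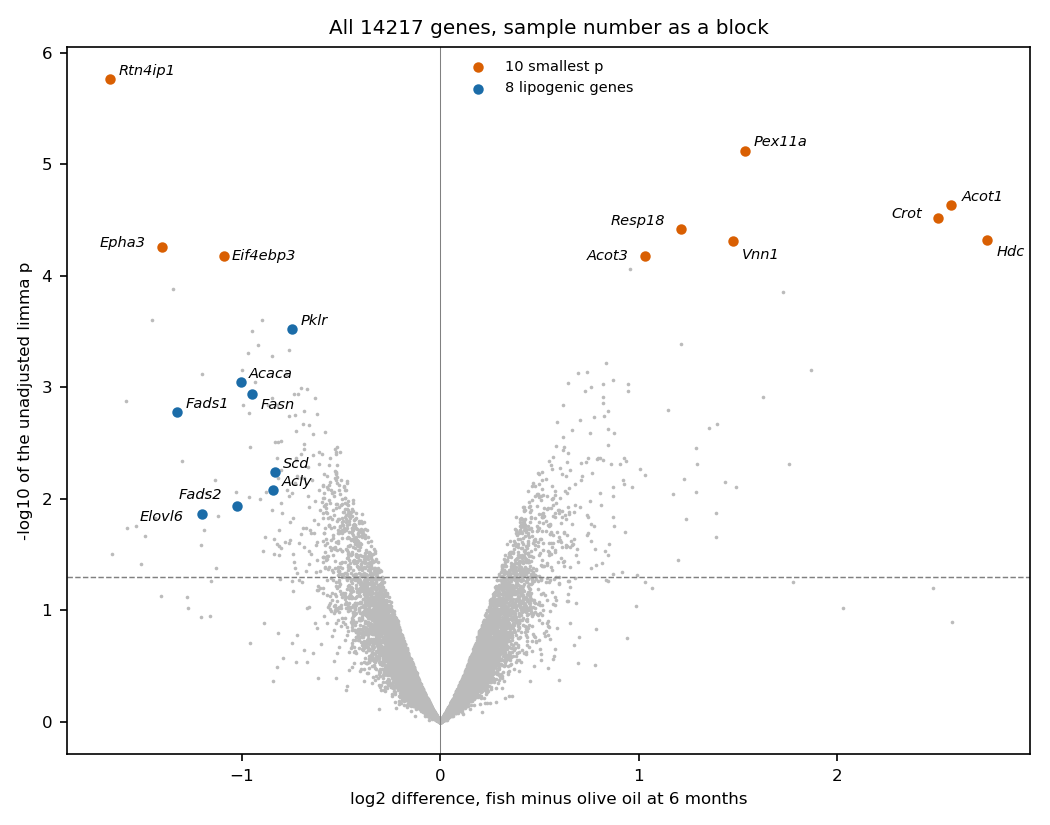
Each point is 1 of 14217 genes, with the log2 difference of fish minus olive oil at 6 months on the x axis and -log10 of the unadjusted limma p on the y axis. Orange points are the 10 genes of smallest p, blue points are 8 genes of fatty acid synthesis and desaturation, and the dashed line marks an unadjusted p of 0.05. Rtn4ip1 stands highest, and the blue points all lie left of 0.

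The gene called was Rtn4ip1, which encodes a mitochondrial oxidoreductase first found as a partner of the membrane protein reticulon 4. Its signal was 98.1, 89.6 and 138.6 in olive oil livers 1, 2 and 3 and 14.5, 22.8 and 33.8 in fish oil livers 1, 2 and 3. All fish oil livers lay below all olive oil livers, and each sunflower oil liver, at 74.9, 87.2 and 133, was slightly below the olive oil liver of its number. Rtn4ip1 fell by 1.66 ± 0.14 with fish oil (3.16-fold lower, adjusted p = 0.0245). Without the number as a term its adjusted p was 0.387 in the 9 livers of 6 months and 0.924 over all 18 arrays. A dimmer probe set of the same gene, with signals of 7.0 to 22.6 on the 6 arrays, gave -0.18 ± 0.21. Its call ended when any 1 of the 3 numbers, or any 1 of the 6 arrays, was left out, and Rtn4ip1 was called in 6 of 21 alternative settings (adjusted p from 0.00539 to 0.924).

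The promoters of Rtn4ip1 and of the 3 genes that came next in order of p are shown here because these 4 genes had the smallest p-values of the comparison. They are RefSeq sequences of the GRCr8 build, from 250 bases before to 50 after the annotated start, printed 5′ to 3′ on the gene's own strand. Rtn4ip1 lies on the plus strand at chr20:48964685-48964984, Pex11a on the minus strand at chr1:143096442-143096741, Acot1 on the plus strand at chr6:109367024-109367323 and Crot on the plus strand at chr4:26052874-26053173. Capitals mark the NF-Y box, CCAAT or its reverse complement ATTGG.
Rtn4ip1: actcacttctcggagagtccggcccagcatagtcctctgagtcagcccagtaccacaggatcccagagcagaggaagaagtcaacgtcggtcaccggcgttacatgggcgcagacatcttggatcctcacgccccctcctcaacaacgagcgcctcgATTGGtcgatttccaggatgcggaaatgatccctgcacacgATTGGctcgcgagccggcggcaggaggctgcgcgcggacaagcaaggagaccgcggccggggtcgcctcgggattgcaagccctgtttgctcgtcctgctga
Pex11a: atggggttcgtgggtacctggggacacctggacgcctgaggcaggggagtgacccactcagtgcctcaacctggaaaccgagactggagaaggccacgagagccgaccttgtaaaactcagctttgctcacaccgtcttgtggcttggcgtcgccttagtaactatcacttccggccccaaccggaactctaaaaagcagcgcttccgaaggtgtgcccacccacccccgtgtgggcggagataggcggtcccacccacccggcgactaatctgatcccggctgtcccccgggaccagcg
Acot1: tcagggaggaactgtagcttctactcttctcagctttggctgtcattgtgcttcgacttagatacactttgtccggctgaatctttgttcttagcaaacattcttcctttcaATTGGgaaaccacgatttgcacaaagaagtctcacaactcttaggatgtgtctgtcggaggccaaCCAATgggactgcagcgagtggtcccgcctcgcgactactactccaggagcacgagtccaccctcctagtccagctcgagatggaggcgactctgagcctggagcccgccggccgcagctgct
Crot: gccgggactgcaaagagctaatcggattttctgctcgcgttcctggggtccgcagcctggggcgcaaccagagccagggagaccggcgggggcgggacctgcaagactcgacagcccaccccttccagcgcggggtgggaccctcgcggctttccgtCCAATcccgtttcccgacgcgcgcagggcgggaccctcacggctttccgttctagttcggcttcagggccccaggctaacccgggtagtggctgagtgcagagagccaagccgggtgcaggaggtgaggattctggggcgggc
Rtn4ip1 and Acot1 each held 2 NF-Y boxes, Crot held 1 and Pex11a 0 in this window. Of all 27457 genes with a promoter, 39.6% held one, against 14 of 24 lipogenic genes (58.3%), 14 of 17 cholesterol synthesis genes (82.4%), 12 of 24 peroxisomal genes (50%) and 8 of 20 mitochondrial oxidation genes (40%). On both strands, the DR1 element known for PPAR-alpha, a repeat of AGGTCA with 1 base between, was in 0.0619% of all promoters, the sterol element (SRE) of SREBP in 0.117% and the LXR element, the same repeat with 4 bases between, in 0.00728%, and none of them was in these 4 lists. Only exact letters were searched, and no printed promoter held a match to another motif than the NF-Y box. The E-box CACGTG was in 7.08% of all promoters and in 2 of 24 lipogenic, 2 of 17 cholesterol synthesis and 1 of 24 peroxisomal genes. These letters in these windows are a description of sequence, not of binding.

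Among the 10 genes of smallest p, 7 were higher with fish oil. Pex11a, Crot, Acot1, Acot3 and Vnn1 are described first. Pex11a, a membrane protein through which peroxisomes multiply, had signals of 201, 153 and 294 with olive oil and 734, 417 and 839 with fish oil. Every fish oil liver was above every olive oil liver, and sunflower oil livers (246, 117 and 320) were near those of olive oil. The difference was 1.54 ± 0.16 (2.90-fold, adjusted p = 0.0538), and a second probe set of Pex11a gave 1.54 ± 0.23.

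Crot, the carnitine octanoyltransferase that readies fatty acids shortened in peroxisomes for export, had signals of 977, 135 and 520 with olive oil and 3486, 1251 and 3302 with fish oil. The groups did not overlap, with all fish oil livers higher (4.07% of all genes), and both groups were lowest in the liver numbered 2. The difference was 2.51 ± 0.31 (5.68-fold, adjusted p = 0.095). The next brightest Crot probe set gave 2.82 ± 0.41, and the dimmest, under a signal of 16 on all 6 arrays, gave 0.44 ± 0.16. Sunflower oil livers were between the groups in number 1 (1067), number 2 (332) and number 3 (1929).

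Acot1, which frees fatty acids from their coenzyme A in the cytosol, had signals of 283, 4.8 and 375.5 with olive oil and 2728, 53.5 and 2688 with fish oil. Within each number fish oil was higher, but the groups overlapped, because fish oil liver 2 was below olive oil livers 1 and 3. The difference was 2.57 ± 0.31 (5.96-fold, adjusted p = 0.095), and without the number as a term its standard error was 1.76. Acot3, a peroxisomal relative, had signals of 151, 45.8 and 148 with olive oil and 375, 100.1 and 305 with fish oil, a difference of 1.03 ± 0.14 (adjusted p = 0.095). In RefSeq the genes Acot2, Acot1, Acot4 and Acot3 follow each other within a few places on rat chromosome 6. They are close paralogs, so probes of one may read another. Acot2, the mitochondrial member, and Acot4, a peroxisomal member, were both higher in each of the 3 numbers, by 0.85 ± 0.21 and 0.87 ± 0.17 (adjusted p = 0.562 and 0.372). Both were chosen after their values were seen, and other probe sets of Acot2 gave 0.35 ± 0.16 and 1.28 ± 0.28.

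**Figure D2:**
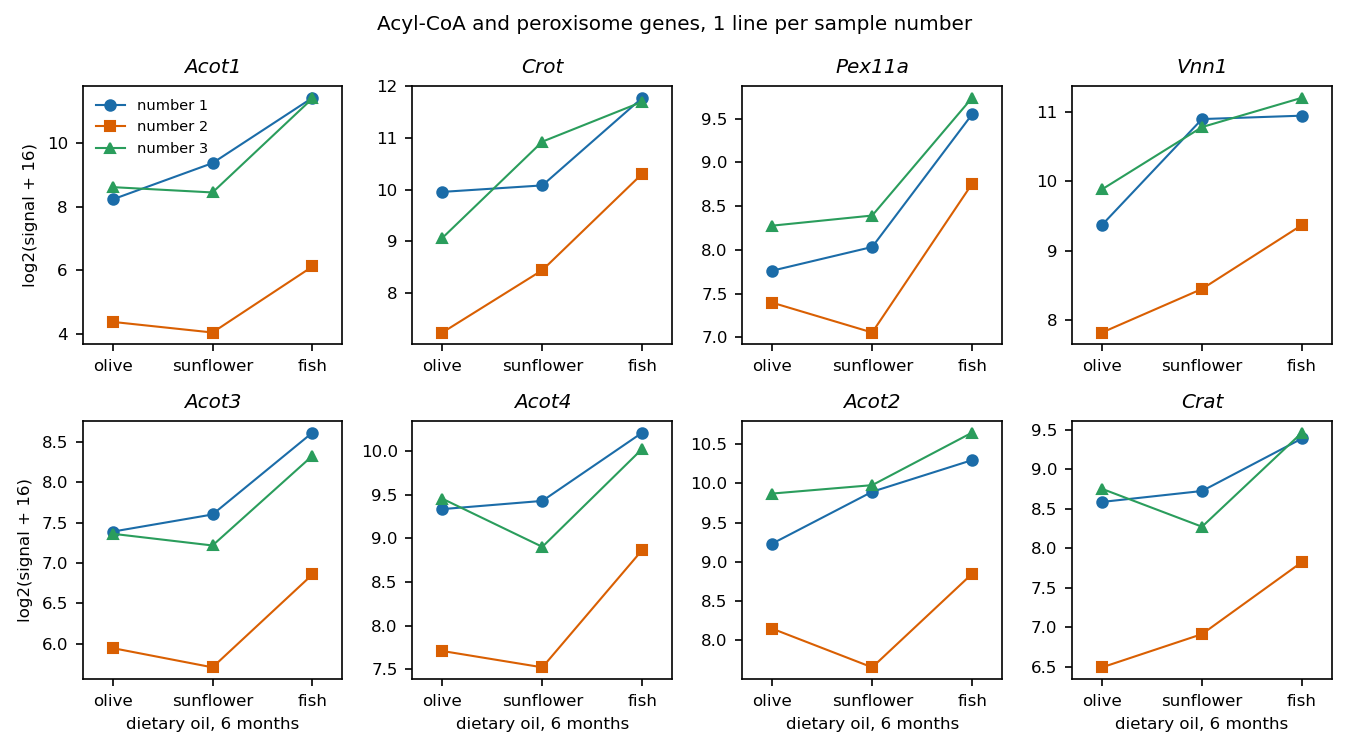
Each panel shows log2(signal + 16) of 1 gene in the 9 livers of 6 months, by dietary oil on the x axis, with 1 line and marker for each sample number. In every panel each line ends higher at fish oil than at olive oil, and the liver numbered 2 lies below the other livers of the same oil.

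Vnn1, the pantetheinase that releases cysteamine in coenzyme A breakdown, had signals of 647, 211 and 928 with olive oil and 1951, 646 and 2335 with fish oil. Its difference was 1.48 ± 0.19 (2.78-fold, adjusted p = 0.095), and the groups overlapped through the livers numbered 2. Sunflower oil livers, at 1885, 334 and 1739, were also above the olive oil liver of their number.

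Among 26 measured genes of peroxisomal and microsomal fatty acid oxidation, 0 were called. The list holds Crot, Pex11a, Acot3 and Acot4, described above, so its counts are not separate from their values. At an unadjusted p under 0.05, 7 of 26 were on the higher side (all genes 3.42%) and 0 on the lower side. Without the number as a term the count was 2 (all genes 2.07%), and without the livers numbered 2 it was 6. It was 4 without number 3 and without olive oil liver 3. In all, 13 of 26 were higher in each of the 3 numbers (13.1% of all genes), and the list median was 0.20 against -0.0045 for all genes. Cyp4a1, the classic fatty acid omega-hydroxylase of rodent PPAR-alpha responses, had signals of 4729, 1122 and 3988 with olive oil and 6169, 1607 and 5468 with fish oil, a difference of 0.45 ± 0.19 (adjusted p = 0.694). Ehhadh, the peroxisomal bifunctional enzyme, differed by 0.37 ± 0.23 (adjusted p = 0.794) and was lower with fish oil in number 2. Catalase (Cat, -0.04) and Acox3 (0.02), also peroxisomal enzymes and chosen after their values were seen, were near 0.

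Most mitochondrial oxidation genes had values on the higher side. Of 24 measured, 0 were called, and Acot2, described above, is a member. At an unadjusted p under 0.05, 7 were on the higher side and 1 on the lower (3.42% and 3.64% of all genes). Without the number as a term these counts were 1 and 0 (2.07% and 2.17% of all genes). They were 7 and 0 without the livers numbered 2. The higher count was 4 without number 1, 2 without number 3, 4 without fish oil liver 3 and 3 without olive oil liver 3. In each of the 3 numbers 17 of 24 were higher with fish oil and 1 was lower (13.1% and 14.1% of all genes). The list medians were 0.19, 0.20 and 0.28 in numbers 1, 2 and 3 (0.24 over the fitted differences). Crat, which moves acetyl groups between coenzyme A and carnitine, differed by 0.95 ± 0.19 (adjusted p = 0.372) and Slc25a20, the carnitine carrier of the inner membrane, by 0.45 ± 0.14 (adjusted p = 0.599), both chosen after their values were seen. The single gene on the lower side was Cpt1a, the carnitine palmitoyltransferase that controls entry of fatty acids into mitochondria. Its signals were 5424, 3120 and 4105 with olive oil and 3960, 1548 and 3628 with fish oil, a difference of -0.54 ± 0.18 (adjusted p = 0.599). A second probe set of Cpt1a gave -0.20 ± 0.41, with fish oil higher in number 3.

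A further list of PPAR-alpha targets, which also holds Acot1 and Cpt1a, did not share one direction. Of 26 measured, 4 had an unadjusted p under 0.05 on the higher side and 2 on the lower (3.42% and 3.64% of all genes). The list median was 0.09. Pdk4, which switches off pyruvate dehydrogenase, differed by -0.47 ± 0.31 (adjusted p = 0.799) and by 0.16 ± 0.18 on its other probe set. Angptl4, an inhibitor of lipoprotein lipase, differed by 0.15 ± 0.32, the fatty acid transporter Cd36 by 0.06 ± 0.42 and the lipid droplet coat protein Plin2 by 0.40 ± 0.20. Fgf21, a fasting hormone of liver, differed by 0.23 ± 0.14. The signal of Ppara itself was 62.7, 52.0 and 1.2 with olive oil and 38.9, 36.5 and 16.3 with fish oil, so that numbers 1 and 2 were lower and number 3 higher with fish oil, and Ppargc1a, its coactivator, differed by -0.25 ± 0.15.

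Enzymes of fatty acid synthesis and desaturation were lower with fish oil within numbers. The list, chosen like all lists here with earlier results of these data known, held 27 measured genes, and 0 were called. At an unadjusted p under 0.05, 17 were lower and 0 higher (3.64% and 3.42% of all genes), and 15 of 27 were lower in each of the 3 numbers against 14.1% of all genes. The list median was -0.78, and it was -0.55, -0.80 and -0.44 in numbers 1, 2 and 3. Without the number as a term 2 of 27 were lower at that level (2.17% of all genes). Without the livers numbered 2 there were 10, and the median was -0.48. Without fish oil liver 2 alone there were also 10. The groups did not overlap, with fish oil lower, in 1 of 27 genes (4.66% of all genes).

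Both desaturases of the polyunsaturated pathway were lower in each number. Fads1, the delta-5 desaturase, had signals of 1857, 3865 and 2352 with olive oil and 684, 2085 and 727 with fish oil. Fish oil was lower in each number, and fish oil liver 2 overlapped olive oil liver 1. The difference was -1.33 ± 0.29 (2.51-fold lower, adjusted p = 0.407). Fads2, the delta-6 desaturase, had signals of 1114, 2868 and 1250 with olive oil and 658, 959 and 733 with fish oil, with no overlap, and differed by -1.02 ± 0.32 (2.03-fold lower, adjusted p = 0.599). Scd, the delta-9 desaturase that makes oleic acid, ran from 25.3 to 8930 among olive oil livers alone. Its signals were 25.8, 8930 and 25.3 with olive oil and 2.9, 6102 and 7.6 with fish oil, so 2 of its fish oil values were under the pseudocount of 16. The difference was -0.83 ± 0.23 with the number as a term and had a standard error of 3.00 without it.

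Enzymes that make fatty acids from citrate followed the same order. Acly, which splits citrate into acetyl-CoA, had signals of 465, 4504 and 275 with olive oil and 269, 1655 and 215 with fish oil (-0.84 ± 0.24, adjusted p = 0.599). Acaca, the acetyl-CoA carboxylase, had 265, 2567 and 190.3 against 96.5, 1054 and 138 (-1.01 ± 0.20, adjusted p = 0.372). Fasn had 95.3, 2535 and 69.9 against 33.1, 1161 and 42.9 (-0.95 ± 0.20, adjusted p = 0.372). In each of these genes every fish oil liver was below the olive oil liver of its number, and the livers numbered 2 were the highest of both groups. Elovl6, the elongase of saturated fatty acids, differed by -1.20 ± 0.39, and its 3 differences were -0.79, -2.26 and -0.55. Pklr, the liver pyruvate kinase that feeds carbon into the pathway, had signals of 216, 3579 and 155 with olive oil and 132, 2043 and 83.5 with fish oil. Its 3 differences were -0.65, -0.80 and -0.78, and its adjusted p of 0.26 was the smallest on the list.

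**Figure D3:**
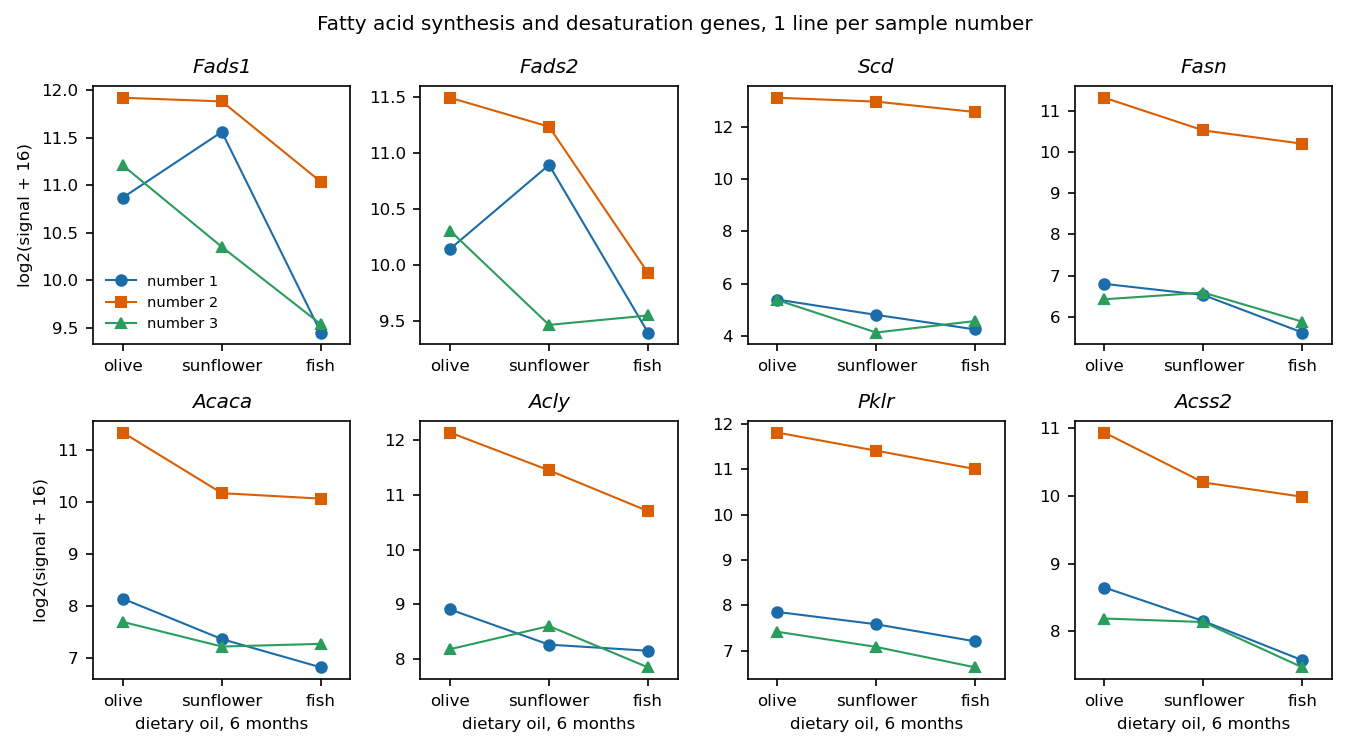
Each panel shows log2(signal + 16) of 1 gene in the 9 livers of 6 months, by dietary oil on the x axis, with 1 line and marker for each sample number. In every panel each line is lower at fish oil than at olive oil, and the liver numbered 2 lies above the other livers of the same oil. The gap is wide for Scd, Fasn, Acaca, Acly, Pklr and Acss2, of which Acss2 was chosen after its values were seen.

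On the probe sets used, Srebf1, Thrsp, Me1 and Elovl5 did not have 1 direction in all numbers. Srebf1, which encodes SREBP-1, had signals of 1108, 925 and 589 with olive oil and 361, 1015 and 309 with fish oil, lower in numbers 1 and 3 and slightly higher in number 2 (-0.78 ± 0.29, adjusted p = 0.624), and a second probe set of it gave -0.42 ± 0.26. Thrsp, the Spot 14 protein that accompanies lipogenesis, differed by -3.07, -0.74 and 0.20 in the 3 numbers. A nearly as bright probe set of Thrsp was lower with fish oil in each number (-1.29 ± 0.56). The dimmest Thrsp probe set gave -1.18 ± 0.67, with fish oil higher in number 3. Me1, the malic enzyme that supplies NADPH, differed by -0.04 ± 0.34, with number 2 lower and numbers 1 and 3 higher. Elovl5 (-0.05 ± 0.15) was near 0, and a second probe set of it gave 0.59 ± 0.31. Elovl2, which extends long polyunsaturated acids, was lower in each number, by -0.05, -1.12 and -0.37.

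Cholesterol synthesis genes were also mostly on the lower side. Of 21 measured, 0 were called. At an unadjusted p under 0.05, 11 were on the lower side and 1 on the higher (3.64% and 3.42% of all genes). In each number 14 of 21 were lower (14.1% of all genes). The median was -0.50, and it was -0.34, -0.77 and -0.48 in numbers 1, 2 and 3. Without the number as a term the lower count was 1 (2.17% of all genes), without the livers numbered 2 it was 6, and without fish oil liver 2 it was 5. Members chosen after their values were seen were Lss, the lanosterol synthase (-0.74 ± 0.15), and Fdps, the farnesyl diphosphate synthase (-0.82 ± 0.21), each lower in all 3 numbers. Insig1 and Insig2, which hold SREBP in the endoplasmic reticulum and were also chosen after their values were seen, had opposite signs. Insig1 had signals of 401, 3516 and 2777 with olive oil and 427, 1037 and 317 with fish oil (-1.58 ± 0.54), while Insig2 had 2250, 592 and 1856 against 2678, 1716 and 2666 (0.76 ± 0.28). Sqle, the squalene epoxidase fixed as a core gene, was dim, at 7.1 to 34.6 on the 6 arrays, and differed by -0.38 ± 0.22.

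Apolipoprotein genes had small differences, mostly on the lower side. Apoa4, a protein of triglyceride-rich lipoproteins, had signals of 6420, 5222 and 5893 with olive oil and 3731, 2537 and 3570 with fish oil. The groups did not overlap, and the difference was -0.85 ± 0.16 (1.80-fold lower, adjusted p = 0.339), with a standard error of 0.17 without the number as a term. Apoa1, the main protein of high-density lipoprotein, differed by -0.30 ± 0.16. Of 22 lipoprotein genes, 15 were lower in each number (14.1% of all genes) and 10 did not overlap (4.66% of all genes), with a median of -0.20. Hepatocyte markers moved with this list. All 11 of them were below 0, from -0.30 to -0.07, 7 of them had groups that did not overlap, and their summed signal was 91477 to 98477 with olive oil and 80440 to 88533 with fish oil. Apoa1 and Apob belong to both lists. The hepatocyte median was -0.19, and under quantile normalization it was -0.05 and that of the lipoproteins -0.12. The highest signal of each fish oil array was below that of each olive oil array at 6 months. The part of array scaling in the hepatocyte values was not tested. Endothelial and macrophage markers had medians of -0.24 and -0.20, with 9 of 10 and 7 of 9 genes below 0. The macrophage medians were 0.33, -0.57 and -0.20 in numbers 1, 2 and 3. Medians of T and NK cell and erythroid markers were 0.06 and 0.18. In a piece of whole liver, fewer cells of a type and less RNA per cell cannot be told apart. Cyp7a1, the first enzyme on the main path from cholesterol to bile acids, differed by -0.07 ± 0.27 and the sterol exporter Abcg5 by 0.18 ± 0.23, both of mixed sign over the numbers.

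Glucose genes and clock genes had lower medians too. Of 25 glucose genes, 7 had an unadjusted p under 0.05 on the lower side and 0 on the higher (3.64% and 3.42% of all genes). The list median was -0.24, and without the number as a term the lower count was 0. It was 5 without the livers numbered 2, 2 without number 1 or fish oil liver 1, 3 without fish oil liver 3 and 4 without fish oil liver 2 or olive oil liver 1. Pklr belongs to both this list and the lipogenic one. Of 19 clock genes, 6 were on the lower side and 2 on the higher at that level (3.64% and 3.42% of all genes). These counts were 1 and 0 without the number as a term, 4 and 0 without the livers numbered 2 and 3 and 1 without number 1. The clock medians were -0.84, -0.60 and -0.12 in numbers 1, 2 and 3. The median over the fitted differences, -0.52, was -0.23 without number 1, -0.33 without fish oil liver 1 and -0.27 without olive oil liver 1. Per2, a repressor of the clock, had signals of 178, 219 and 20.6 with olive oil and 28.9, 71.0 and 19.9 with fish oil, and Bmal1, an activator, had 14.4, 6.1 and 112 against 93.6, 33.6 and 93.3. Both were chosen after their values were seen. In numbers 1 and 2 the fish oil liver was lower for Per2 and higher for Bmal1, and in number 3 both differences were near 0 or reversed. The labels do not give the hour of killing, and its part in these and the other values was not tested.

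**Figure D4:**
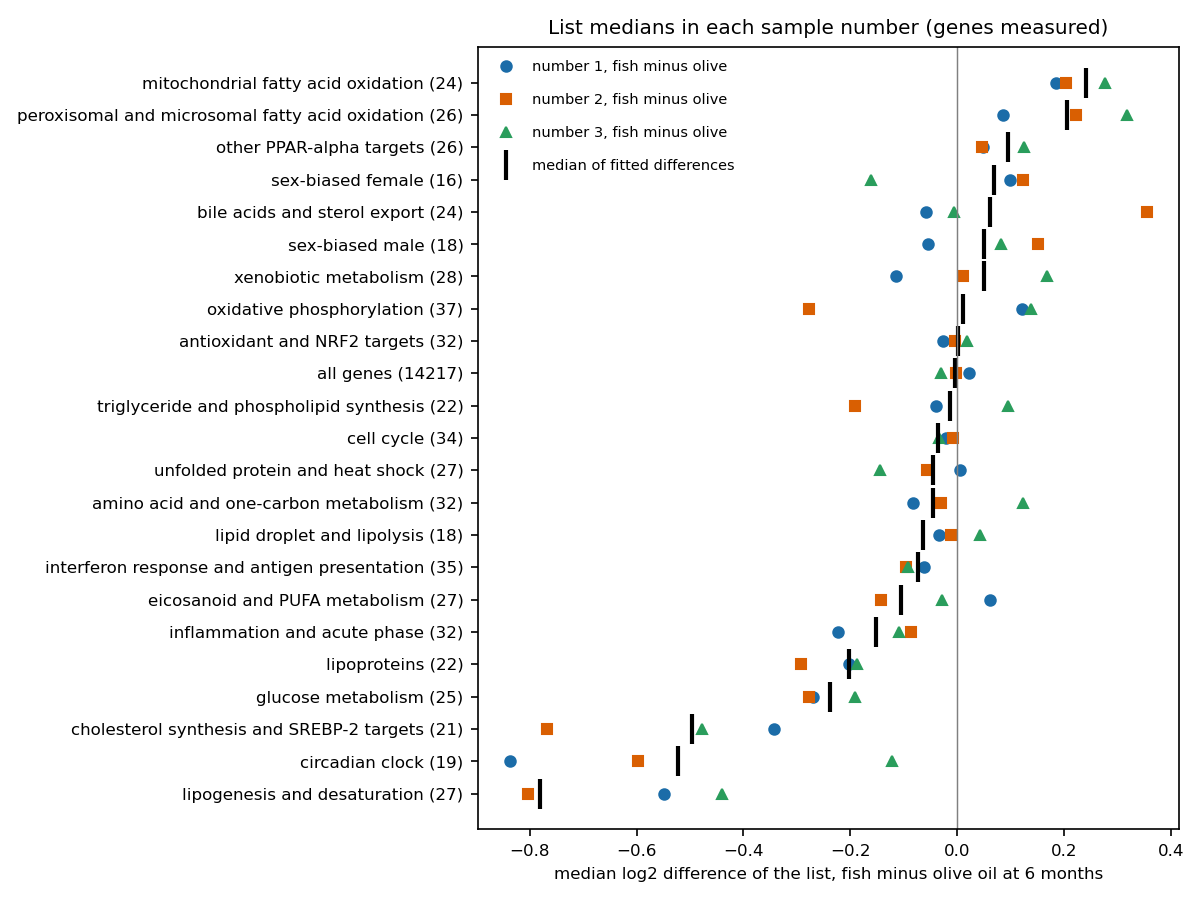
Median log2 difference of fish minus olive oil at 6 months over the genes of each list (x axis), with 1 point for each sample number and a black bar for the median of the fitted differences. Lipogenic, clock and cholesterol lists have their bars furthest below 0, from -0.78 to -0.50, and the oxidation lists have theirs furthest above, at 0.20 and 0.24.

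The 10 genes of smallest p also hold Hdc, Resp18, Epha3 and Eif4ebp3. Hdc, the histidine decarboxylase that makes histamine, had signals of 50.8, 5.6 and 19.3 with olive oil and 554, 63.5 and 328 with fish oil. The groups did not overlap, and sunflower oil livers had 36.9, 18.1 and 33.4. The difference was 2.75 ± 0.36 (6.74-fold, adjusted p = 0.095), and with olive oil values near or under the pseudocount in livers 2 and 3 it was 1.85 with a pseudocount of 64 and 3.58 with a pseudocount of 1. Resp18, a protein known from endocrine cells, had 98.4, 106 and 73.8 with olive oil and 228, 234 and 239.8 with fish oil (1.21 ± 0.15, adjusted p = 0.095). It varied little within either group, and its standard error was 0.16 without the number as a term (adjusted p = 0.318).

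Epha3, a receptor tyrosine kinase for ephrins, had signals of 58.7, 156.7 and 63.9 with olive oil and 20.0, 34.4 and 14.9 with fish oil (-1.40 ± 0.19, adjusted p = 0.095), and a second probe set gave -1.37 ± 0.21. Eif4ebp3, a repressor of translation initiation, had 1906, 1577 and 2442 with olive oil and 1016, 748 and 974 with fish oil (-1.09 ± 0.15, adjusted p = 0.095). Both had no overlap between the groups. For Eif4ebp3 the sunflower oil livers, at 733, 478 and 631, were lower still. Cidea, a lipid droplet protein called only under alternative settings and chosen after its values were seen, had 152, 108 and 194 with olive oil, 693, 302 and 695 with fish oil and 778, 235 and 359 with sunflower oil (1.73 ± 0.26, adjusted p = 0.154).

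The sunflower oil livers place these values. Fish minus sunflower oil and sunflower minus olive oil share arrays with fish minus olive oil, so they are given side by side with no test. Acot1 differed by 2.36 and 0.21, Hdc by 2.48 and 0.27, Pex11a by 1.52 and 0.02, and Rtn4ip1 by -1.52 and -0.14, in that order, so that their mean with sunflower oil was nearer to olive oil. Fads1 had -1.26 and -0.07, and its sunflower oil signals of 3010, 3762 and 1290 were above olive oil in number 1 and below it in numbers 2 and 3. Crot had 1.44 and 1.06, Vnn1 had 0.46 and 1.01 and Cidea had 0.37 and 1.36, so that sunflower oil was nearer to fish oil or between the oils. Acaca had -0.20 and -0.81, also with sunflower oil nearer to fish oil.

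The same oils were compared at 24 months in other animals, whose arrays had no part in the order of p at 6 months. Group means of all 18 arrays were fitted with the number within age as a term, although numbers did not pair the fish and olive oil livers at 24 months (correlations of 0.01, 0.12 and 0.03). Acot1 had signals of 94.6, 82.8 and 150 with olive oil and 2743, 2733 and 1965 with fish oil at 24 months. It rose by 4.34 ± 0.32 (adjusted p = 0.000126) and was the only gene called at that age in this fit, 0.00703% of those tested. At an unadjusted p under 0.05, 940 genes were higher (6.61%) and 511 lower (3.59%). Without the number as a term the standard error of Acot1 was 1.38 and the call ended (adjusted p = 0.428), in a fit whose spread includes the livers numbered 2 at 6 months. With each of the 6 old fish and olive oil arrays left out in turn the adjusted p of Acot1 was 0.000388 to 0.0036.

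Hdc had signals of 245, 78.0 and 68.9 with olive oil and 734, 610 and 1164 with fish oil at 24 months, with no overlap (2.69 ± 0.43, adjusted p = 0.0721). Acot3 differed by 1.63 ± 0.27 (adjusted p = 0.0721), Pex11a by 1.40 ± 0.44 and Vnn1 by 1.18 ± 0.35. Fads1 had 951, 2250 and 1032 with olive oil and 657, 235 and 171.4 with fish oil (-2.06 ± 0.41, adjusted p = 0.179), and Pklr differed by -0.74 ± 0.18, Apoa4 by -0.85 ± 0.17 and Fasn by -0.81 ± 0.32. Of the 10 genes of smallest p at 6 months, Resp18 alone had the opposite sign at 24 months (-0.36 ± 0.19). Rtn4ip1, called at 6 months, differed by -0.60 ± 0.39 at 24 months (adjusted p = 0.636), with signals of 51.3, 83.5 and 110.0 with olive oil and 100.1, 36.9 and 23.4 with fish oil.

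The test of the difference between the ages, 24 months minus 6 months, called 0 of 14217 genes in limma, and 1084 (7.62%) had an unadjusted p under 0.05, 702 with a contrast above 0 (4.94%) and 382 below (2.69%). Resp18 had the contrast -1.58 ± 0.27 (adjusted p = 0.273), Pdk4 2.15 (adjusted p = 0.396), Acot1 1.76 (adjusted p = 0.60), Epha3 0.98 (adjusted p = 0.60), Rtn4ip1 1.06 (adjusted p = 0.687) and Crot -1.75 (adjusted p = 0.616). For Pex11a (-0.13), Vnn1 (-0.30), Hdc (-0.07), Fasn (0.14) and Pklr (0.00) the contrast was small against its error. The cholesterol list had a median of -0.50 at 6 months and 0.09 at 24 months, and the lipogenic list -0.78 and -0.30.

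**Figure D5:**
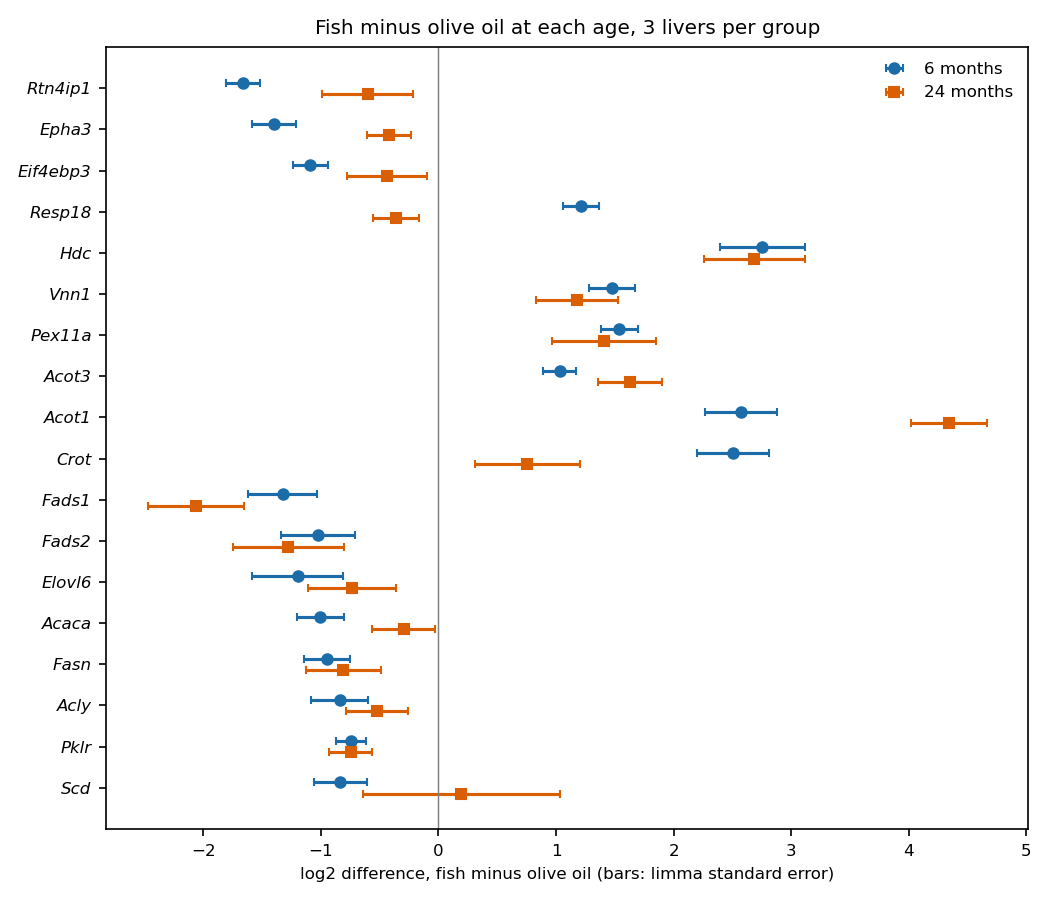
Log2 difference of fish minus olive oil (x axis) for 18 genes at 6 months (blue circles, fit of 9 livers) and 24 months (orange squares, fit of 18 livers), with bars of 1 limma standard error. Hdc, Vnn1, Pex11a, Fasn and Pklr lie at similar places at both ages, Acot1 lies at 2.57 and 4.34, and Resp18 lies on opposite sides of 0.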

How the data were processed

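Liver RNA of 18 rats was hybridised to Affymetrix arrays, and the intensities that the authors deposited for each probe set were used. RMA and Partek are named, with no version, in the submitters' processing notes, whereas the deposited intensities are linear (0.0 to 14085.0) with a 2% trimmed mean of 99.17 to 99.39 on every array, so they had been scaled. How the values were made is otherwise unknown here, since the steps are not given in the sources used. The pseudocount of 16 was above 47.3% of the values, and detection calls were not used here. No pair of arrays was identical.

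The platform annotation gave 1 symbol to 20826 of 31042 probe sets, several to 436 and none to 9780. RefSeq's gene table held 20758 of those with 1. Each gene was represented by its probe set of highest mean log2 value over 18 arrays, leaving 14217 genes, 4525 of them with several probe sets. log2(signal + 16) of the 9 arrays of 6 months was fitted in R 4.3.3 by lmFit and eBayes of limma 3.58.1, on oil and sample number (4 residual and 4.37 prior degrees of freedom), two-sided, with a Benjamini-Hochberg threshold of 0.05. The age contrast used all 18 arrays with the number within age (8 residual degrees of freedom). The numbers were taken to pair the samples because every same-numbered fish and olive oil pair of 6 months correlated over 0.1 in its deviations.

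Genes named were those called, the core genes, and the 10 of smallest p, with up to 4 called members per list. Others are said to be chosen after their values were seen. The 24-month fit for single genes was also added then. The members and lists were chosen with earlier results of these data known. The code was tested on simulated data. For arrays, precision is limited by their number, 3 in a group. Figures were drawn with matplotlib 3.10.9, and tables were prepared with pandas 2.3.3 and numpy 2.4.6 in Python 3.11.15.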

Additional observations from a re-analysis of the deposited data

How the results depend on the processing

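Calls were few and moved with nearly every choice. The number of genes called at 6 months, 1 with the replicate block, was 0 with no replicate block in the 9 arrays (603 at an unadjusted p under 0.05) and 0 with no replicate block over all 18 arrays (585), 2 with the block within age over all 18 arrays, and 0 with only the 6 fish and olive oil arrays. It was 0 with a pseudocount of 1, 2 with a pseudocount of 64, 2 with median centring, 0 over all 31042 probe sets, 13 among 7033 genes with a mean signal of 50 or more (9 higher, 4 lower) and 14 with a trended, robust prior (8 higher, 6 lower). It was 1 with quantile normalization and with the probe set of largest variance, and 0 to 1 with arrays or numbers left out. Under at least 1 alternative each, Pex11a, Acot1, Crot, Resp18, Hdc, Vnn1, Acot3, Eif4ebp3, Epha3 and Apoa4 were also called (lowest adjusted p from 0.00539 to 0.0296), as were Cidea, Usp2, Inmt and Olr59, which were chosen after their values were seen (0.0261 to 0.0339). The cause was not tested.

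The lipogenic median of -0.78 was -0.43 with a pseudocount of 64 and -0.75 to -0.48 with arrays left out, weakest without number 2. The mitochondrial oxidation median of 0.24 was 0.23 to 0.29 with arrays left out. Single genes that changed sign were not called under any setting. Elovl5 (-0.05) was 0.59 with its other probe set and -0.20 to 0.0651 with arrays left out. Ppara (0.0055) was -0.0689 with a pseudocount of 64, -0.0024 with quantile normalization, -0.0064 with median centring and -0.57 to 0.34 with arrays left out. With arrays left out the range was -0.41 to 0.50 for Me1, -0.89 to 0.0018 for Pdk4, -0.16 to 0.57 for Angptl4, -0.72 to 0.47 for Cd36, -0.31 to 0.36 for Cyp7a1 and -0.15 to 0.35 for Abcg5. The glucose list's median of -0.24 was -0.16 with a pseudocount of 64 and with the probe set of largest variance.

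At 24 months, the 1 gene called with the block became 0 with no replicate block (1135 at an unadjusted p under 0.05) and 1 to 29 with arrays left out (29 without fish oil liver 1 and 2 without olive oil liver 1). The contrast of ages called 0 genes in limma in every alternative. Dim genes limit the comparison, since no detection calls were used to tell values under the pseudocount from background.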

Other observations

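Several gene groups had medians near 0 for fish minus olive oil at 6 months. Of 37 measured oxidative phosphorylation genes, 0 had an unadjusted limma p under 0.05 in either direction (all genes 3.64% lower and 3.42% higher). The median was 0.01, and number 2 went against numbers 1 and 3 (medians of -0.28, 0.12 and 0.14). Of 32 antioxidant and NRF2 target genes, 2 were on the higher side and 0 on the lower (3.42% and 3.64% of all genes), with a median of 0.00. Of 35 interferon and antigen presentation genes, 2 lay on each side at that level (3.64% of all genes lower and 3.42% higher). In all, 24 of the 35 were below 0 and 11 above, from -1.53 to 0.86. Their median was -0.07 at 6 months and 0.57 at 24 months. 

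Inflammation and acute phase genes lay mostly on the lower side at 6 months. Of 32 measured, 0 were called and 25 were below 0. At an unadjusted p under 0.05, 3 were on the lower side and 1 on the higher (3.64% and 3.42% of all genes). In each of the 3 numbers 11 of 32 were lower (14.1% of all genes), and 6 of 32 had groups that did not overlap, with fish oil lower (4.66%). The list medians were -0.22, -0.09 and -0.11 in the 3 numbers, -0.15 over the fitted differences and 0.08 at 24 months. The lower count was 0 without number 1, 1 without number 3 or olive oil liver 1 and 5 without number 2 or olive oil liver 2. The median was -0.075 without number 1, -0.0696 without olive oil liver 1 and -0.06 under quantile normalization. Fgb belongs to both this list and the hepatocyte markers, which were also lower with fish oil.

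Slc3a2, the heavy chain of amino acid transporters, was chosen after its values were seen. Its signals were 415.5, 313 and 453 with olive oil and 859, 879 and 1046 with fish oil, with no overlap (1.21 ± 0.22, adjusted p = 0.315 in limma). Plin3, a lipid droplet coat protein chosen in the same way, had 886, 657 and 566 with olive oil and 491, 269 and 313 with fish oil (-0.97 ± 0.18, adjusted p = 0.332). Olr59, an olfactory receptor gene also chosen after its values were seen, had signals of 49.7, 71.5 and 63.9 with olive oil and 100.9, 181.7 and 129 with fish oil at 6 months, and 205, 314 and 247 against 102, 151 and 52.6 at 24 months. Its contrast of ages, -2.23, had an adjusted p of 0.179.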
